A study of Mus musculus with 3 samples.

Results

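Smooth muscle contractile genes and the transcription factor Srf were followed through exposure of mouse fibroblasts to a DNA methylation inhibitor and through the growth that followed its withdrawal. The members are the 10 genes Acta2, Actg2, Myl9, Myh9, Tagln, Cnn1, Cnn2, Tpm1, Tpm2 and Srf, found by gene symbol among the 19057 named genes of an Illumina bead array. They are represented by 24 of its 45281 probes. NIH/3T3, an established mouse embryonic fibroblast line, was sampled as mock-treated cells, as cells given 1 uM 5aza-dC (decitabine) with daily renewal for 3 days, and as cells given the same treatment and then grown for 14 days without it. These groups are called mock, 5aza-dC and recovery. All 3 were grown in medium with foetal calf serum, and total RNA of whole cultures was measured, so that fewer cells of a type and less RNA per cell cannot be told apart. The labels give 1 mock sample and name no mock culture grown for the further 14 days. Effects of the drug or its withdrawal and of 14 further days in culture therefore cannot be told apart in recovery.

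Smooth muscle actins, myosin light and heavy chains, tropomyosins, calponins and transgelin form or regulate the contractile actomyosin apparatus. Fibroblasts switch many of these genes on when they become myofibroblasts, the contractile cells of healing wounds. SRF binds a DNA element called the CArG box and, with myocardin-related cofactors that sense free actin monomers or with ETS-family partners, drives both contractile genes and serum-induced early genes.

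The detection p-values and intensities of each deposited column have the form of a mean of 2 arrays, and the level on each array was computed back from the deposited tables. Levels are normalized log2 intensities after background correction, and a difference is given as the log2 difference between groups ± SE with n = 2 arrays per group. The words rose and fell are kept for an adjusted p below 0.05 from limma, with Benjamini-Hochberg adjustment over all 8984 detected genes. The sources do not state whether the 2 arrays are the duplicate experiments named in the study design or repeat hybridizations of 1 RNA, so the p-values measure the spread between arrays and may hold no variation between cultures. Only 2 arrays per group limit the precision. Over all genes, arrays of 1 group correlated with r = 0.9952 to 0.9978 and arrays of different groups with r = 0.9488 to 0.9816. Probes with a detection p-value below 0.01, called detected, made up 31.9% of the array for mock, 33.4% for 5aza-dC and 31.1% for recovery.

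The cells showed the markers of fibroblasts and few of smooth muscle. Of 12 fibroblast markers 10 were detected in every group, with vimentin (Vim) at a deposited intensity of 11275.4 for mock, 8446.0 for 5aza-dC and 11279.7 for recovery, and Lum and Postn were not detected in any. Values given below in 3s follow this order. The detected fibroblast markers differed widely in brightness. Col1a1 read 1136.5, 633.9 and 1150.5, while Col1a2 (94.6, 74.7 and 76.3) and Col3a1 (81.1, 76.4 and 74.0) lay not far above background. Of 10 genes typical of differentiated smooth or heart muscle, only Smtn (smoothelin) was detected in any group. The desmin gene Des narrowly missed the threshold of 0.01 in 5aza-dC and recovery, with detection p-values of 0.0406, 0.0101 and 0.0101. The smooth muscle myosin heavy chain Myh11 had detection p-values of 0.638, 0.502 and 0.744, and the leiomodin gene Lmod1 and the phosphatase inhibitor gene Ppp1r14a were likewise not detected. Of 9 measured markers of blood, endothelial, epithelial and fat cells, none was detected in mock or recovery and 2 were in 5aza-dC, Krt18 and Pecam1. The summed intensity of that list, not background-subtracted, was 571.5, 616.4 and 557.4. It was mostly background, which was 61.6, 59.04 and 59.39 per probe, and Krt18 alone read 61.0, 116.0 and 63.4. Krt18, a keratin, exceeded its mock level under the drug at least 2.62-fold (adjusted p = 1.07e-04, limma), being not well above background in mock. The endothelial adhesion gene Pecam1 also rose (adjusted p = 0.0097, limma), from a mock level likewise not above background. Its level in 5aza-dC was itself at the edge of detection, with a detection p-value of 0.0091. In recovery against mock Pecam1 rose at least 1.05-fold (adjusted p = 0.00766, limma), with a detection p-value of 0.015 in recovery. With arrays scaled instead to a common median, 1 of these 2 genes rose under the drug, as did 535 of all 8984 genes. Neither gene then passed in recovery against mock (limma). Whether these 2 genes mark cells of those types, and what part they have in the results, was not tested.

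Under the drug Srf, Tagln, Cnn2, Acta2 and Tpm1 fell and Tpm2 rose, and in recovery Actg2, Myl9, Tpm2, Acta2 and Tagln rose above mock and Srf fell below it. Of the 10 members 9 were detected, each in all 3 groups, and Cnn1 was not. In 5aza-dC against mock 5 of the 9 fell and 1 rose, while over all detected genes 27.0% fell and 30.1% rose. In recovery against mock 5 rose and 1 fell, with 22.0% and 18.4% of all genes. In recovery against 5aza-dC 7 rose and none fell by limma, with 21.6% and 20.9% of all genes, and all 9 differences were above 0, the lowest being 0.18. The median difference of the 9 genes was -0.29, 0.55 and 0.79 in these comparisons, beside 0.01, 0.03 and 0.02 over all detected genes. Each pair of comparisons shares the arrays of a group, so they are not independent. These calls depended on the scaling: with arrays scaled to a common median, the median of all genes was -0.12, -0.26 and -0.15, and among the members only the falls of Srf and Tagln under the drug, the rises of Actg2 and Myl9 over mock, and those of Acta2, Actg2, Myl9 and Tagln over 5aza-dC still passed. Relative to those medians the differences whose calls were lost were of similar size, such as -0.63 and 0.79 for Acta2 against mock, -0.75 for Cnn2 under the drug, and 0.51 for Tagln and 0.82 for Tpm2 in recovery against mock. Over all 8984 genes that scaling left 355 falls under the drug, 58 rises over mock and 27 rises over 5aza-dC. The median probe lay near background, so median scaling leaves differences in brightness between arrays largely in place. How far these differences cost calls was not tested.

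**Figure D1:**
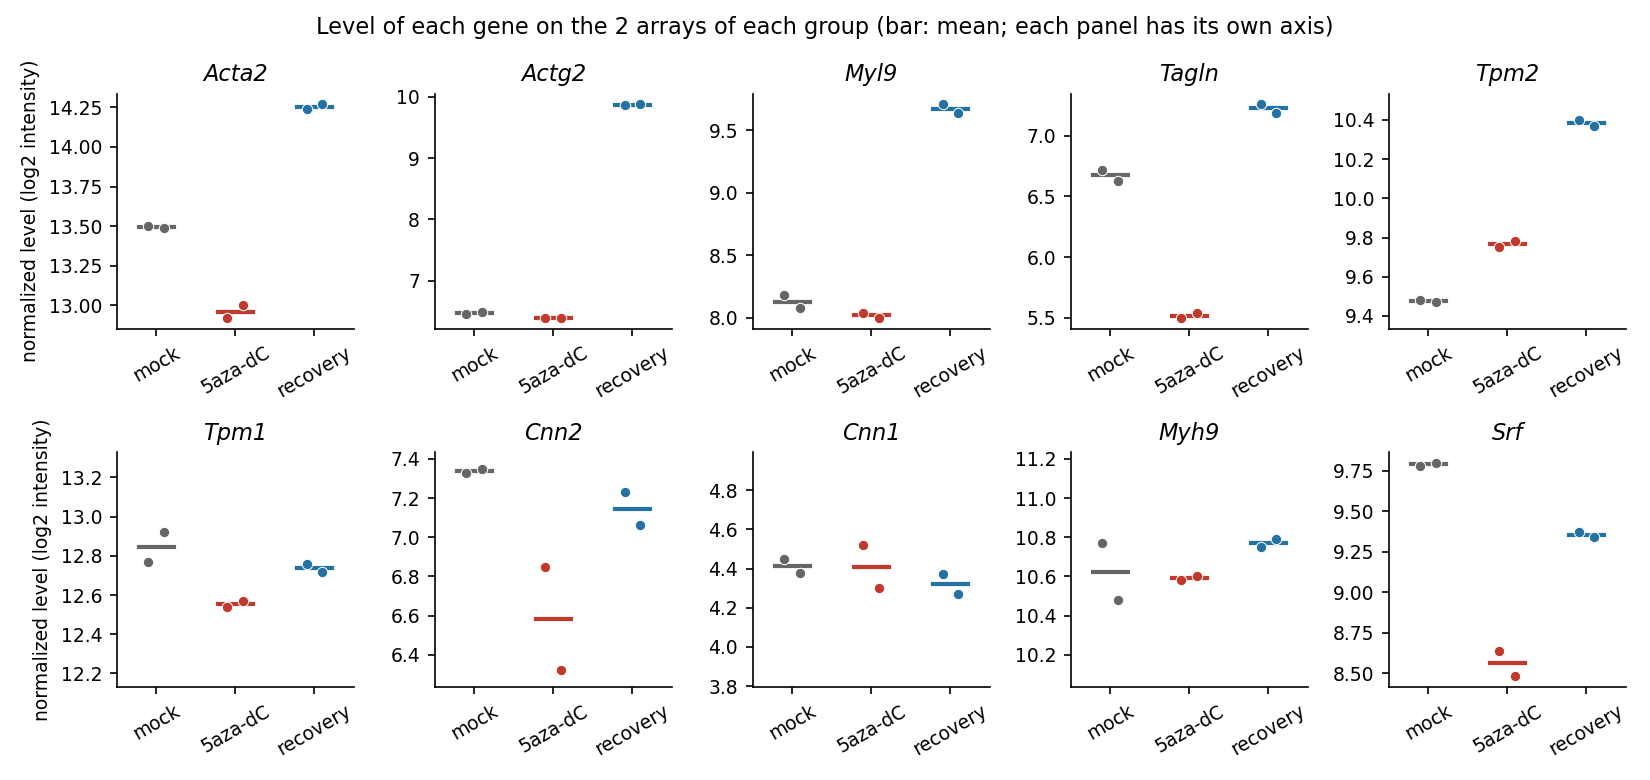
Normalized log2 intensity (vertical axis, a separate range in each panel) of the probe that represents each gene, on the 2 arrays of mock, 5aza-dC and recovery; points are arrays and bars are group means. Acta2, Actg2, Myl9, Tagln and Tpm2 are highest in recovery, Srf is highest in mock, and Cnn1, which was not detected, lies near background in every group.

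The enteric smooth muscle actin gene Actg2 had the largest change of the 10. Its level was 6.46 and 6.49 on the mock arrays, 6.39 and 6.39 on the 5aza-dC arrays and 9.86 and 9.88 on the recovery arrays. Mock and 5aza-dC lay close together, and both recovery arrays stood far above them. The deposited intensity of its probe was 146.0, 128.3 and 844.1. Against mock, Actg2 differed by -0.09 ± 0.07 in 5aza-dC (adjusted p = 0.311, limma) and rose by 3.39 ± 0.07 in recovery, a 10.5-fold difference (adjusted p = 3.19e-06, limma). That was the second largest rise among the 8984 genes, and between 5aza-dC and recovery the rise of 3.48 ± 0.07 ranked 1 of 8984.

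Acta2, which codes for vascular smooth muscle actin and is the usual myofibroblast marker, moved down and then up. Its brightest probe stood at 13.50 and 13.49 in mock, 12.92 and 13.00 in 5aza-dC and 14.24 and 14.27 in recovery. No array of one group overlapped those of another. This probe fell by 0.54 ± 0.07 under the drug (1.45-fold, adjusted p = 9.58e-04, limma) and in recovery was higher than mock by 0.76 ± 0.07 (1.69-fold, adjusted p = 7.79e-04, limma).

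Of the 6 Acta2 probes 4 were detected, and they agreed in direction but not in size. In 5aza-dC against mock they differed by -0.54, -0.82, -0.90 and -0.95, taken from the brightest probe to the dimmest, and in recovery against mock by 0.76, 1.10, 1.46 and 1.33. Each of these differences passed when all 13858 detected probes were fitted (limma). Their deposited mock intensities were 13378.8, 3634.7, 1842.4 and 1217.5. The brightest probe thus gave the smallest difference in both comparisons, and whether brightness bears on this was not tested. The 2 undetected probes had intensities between 52.4 and 60.7. Coding sequences of the actin genes are very similar, and the extent to which the actin probes tell them apart was not tested.

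Counted by probe, 15 of the 24 were detected, all of them in every group. In 5aza-dC against mock 10 of the 15 fell and 1 rose, with 27.3% and 25.5% of all detected probes. In recovery against mock 9 rose and 1 fell, beside 18.4% and 17.2%. In recovery against 5aza-dC 12 rose and none fell, beside 20.3% and 17.1%. Several of these probes belong to the same gene and are not independent.

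**Figure D2:**
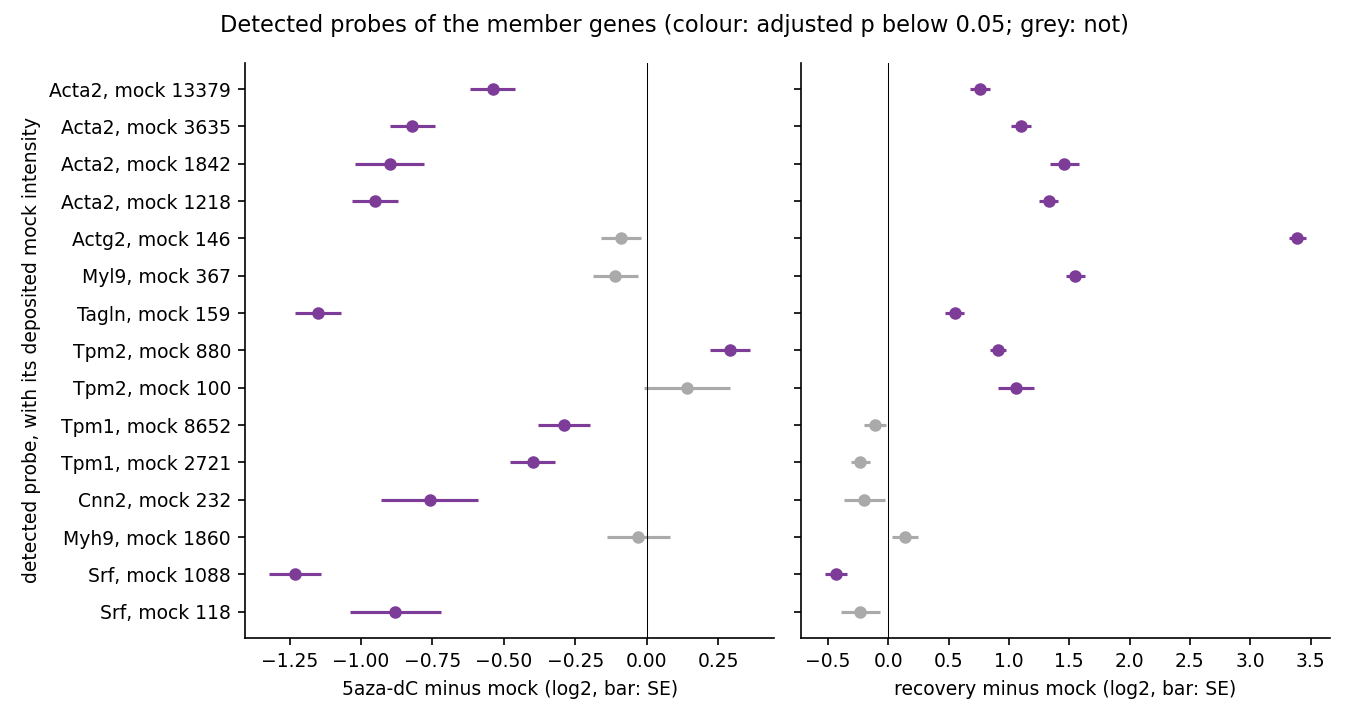
Log2 difference ± SE (horizontal axes) of each of the 15 detected probes in 5aza-dC minus mock (left) and recovery minus mock (right), with the deposited mock intensity of the probe beside its gene symbol; coloured points have an adjusted p below 0.05. All 4 Acta2 probes lie left of 0 under the drug and right of 0 in recovery, both Tpm2 probes lie right of 0 in both panels, and both Srf probes lie left of 0 in both.

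Of the myosin genes Myl9 rose in recovery, and Myh9 passed the test in no comparison. Myl9 codes for the regulatory light chain whose phosphorylation starts smooth muscle contraction. Its level was 8.18 and 8.08 in mock, 8.04 and 8.00 in 5aza-dC and 9.71 and 9.64 in recovery, so that the recovery arrays alone stood apart by more than the spread between arrays. Myl9 differed from mock by -0.11 ± 0.08 in 5aza-dC (adjusted p = 0.257, limma) and rose by 1.55 ± 0.08 in recovery (2.93-fold, adjusted p = 7.03e-05, limma). Among all genes this was rank 41 from the top, and against 5aza-dC its rise of 1.66 ± 0.08 was rank 6. Myh9 codes for the non-muscle myosin IIA heavy chain, which most cells make. Its arrays read 10.77 and 10.48 in mock, 10.58 and 10.60 in 5aza-dC, and 10.75 and 10.79 in recovery, and mock overlapped both other groups. Its differences of -0.03 ± 0.11 and 0.14 ± 0.11 against mock and 0.18 ± 0.11 between recovery and 5aza-dC did not pass.

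Transgelin (Tagln, also called SM22), an actin-bundling protein of the calponin family, fell under the drug and ended above mock. Its detected probe stood at 6.72 and 6.63 in mock, 5.50 and 5.54 in 5aza-dC and 7.26 and 7.19 in recovery. The 3 groups did not overlap, with the drug group lowest. The deposited intensities were 159.4, 90.5 and 171.4. Tagln fell by 1.15 ± 0.08 (2.22-fold, adjusted p = 4.79e-05, limma) and in recovery exceeded mock by 0.55 ± 0.08 (1.47-fold, adjusted p = 0.00246, limma). From 5aza-dC to recovery it rose by 1.71 ± 0.08, rank 5 among all genes. The second Tagln probe was not detected.

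The calponins, which bind actin and restrain myosin ATPase activity, were measured through 1 detected gene. Cnn1, the calponin of differentiated smooth muscle, had detection p-values of 0.152, 0.193 and 0.360 and deposited intensities of 66.0, 63.0 and 60.7, so its level was not detectable in any group. Cnn2, a calponin found in many cell types, stood at 7.33 and 7.35 in mock, 6.85 and 6.32 in 5aza-dC and 7.23 and 7.06 in recovery. The drug arrays were lowest and lay far apart. Cnn2 fell by 0.76 ± 0.17 in 5aza-dC (adjusted p = 0.00776, limma), with passing differences of -1.03 and -0.50 when either drug array was left out. In recovery it differed from mock by -0.20 ± 0.17 (adjusted p = 0.374, limma). Its rise from 5aza-dC to recovery, 0.56 ± 0.17 (adjusted p = 0.0336, limma), did not pass without the drug array that read 6.32 (0.30), without either recovery array (0.47 and 0.65) or without the mock array that read 7.33 (0.56).

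Tropomyosins are coiled-coil proteins that run along actin filaments, and under the drug Tpm2 rose while Tpm1 fell. Tpm2 stood at 9.48 and 9.47 in mock, 9.75 and 9.78 in 5aza-dC and 10.40 and 10.37 in recovery, rising in each step without overlap. It rose by 0.29 ± 0.07 under the drug (adjusted p = 0.0114, limma), the only member that did, and by 0.91 ± 0.07 in recovery against mock (1.88-fold, adjusted p = 3.25e-04, limma). The deposited intensity of this probe was nearly the same in mock and 5aza-dC, at 880.0 and 880.8, and 1189.0 in recovery, while the mean over all probes was 321.2, 277.3 and 255.1. A dimmer Tpm2 probe differed by 0.14 ± 0.15 (not passed) and 1.06 ± 0.15 (passed) in the same comparisons. Tpm1 stood at 12.77 and 12.92 in mock, 12.54 and 12.57 in 5aza-dC and 12.76 and 12.72 in recovery. It fell by 0.29 ± 0.08 under the drug (adjusted p = 0.0196, limma), and its recovery value differed from mock by -0.11 ± 0.08 (adjusted p = 0.331, limma). The drug-against-mock calls of Tpm1 and of Tpm2 were each lost when either 5aza-dC array was left out, which leaves a single array in that group, with values of -0.31 to -0.28 and 0.28 to 0.30.

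**Figure D3:**
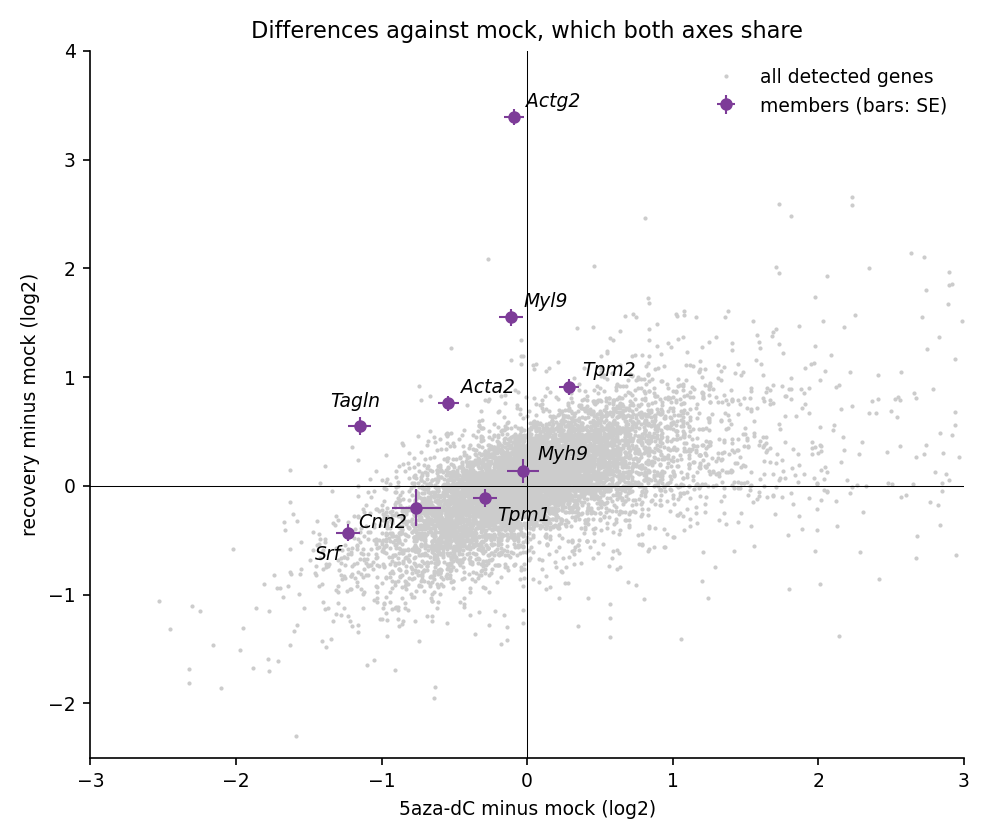
Log2 difference of 5aza-dC minus mock (horizontal axis) and of recovery minus mock (vertical axis) for 8938 detected genes (grey; 46 genes lie outside the axes) and the 9 detected members (purple, bars are SE). Both axes use the same mock arrays. Actg2 lies at -0.09 and 3.39, Tagln and Acta2 lie low on the first axis and above 0 on the second, and Srf lies below 0 on both.

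Srf fell under the drug and came back in part. Its brighter probe stood at 9.78 and 9.80 for mock, 8.64 and 8.48 for 5aza-dC and 9.37 and 9.34 for recovery. The groups did not overlap, and recovery lay between the other two. Srf fell by 1.23 ± 0.08 under the drug (2.34-fold, adjusted p = 4.99e-05, limma), which was rank 113 from the bottom among all genes. In recovery it was still lower than mock by 0.43 ± 0.08 (1.35-fold, adjusted p = 0.00727, limma), having risen by 0.79 ± 0.08 from 5aza-dC (adjusted p = 5.31e-04, limma). The dimmer Srf probe fell by 0.88 ± 0.16 under the drug and differed by -0.23 ± 0.16 in recovery against mock, which did not pass. With median scaling the fall of the brighter probe in recovery against mock no longer passed (adjusted p = 0.242, limma), at -0.54 relative to the median of all genes.

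Of the 10 members 8 have an entry in the RefSeq promoter table (GRCm38.p6), which covers 250 bases before and 50 bases after a transcript start. CArG boxes were searched on both strands of these windows with no mismatch allowed, and 3 of the 8 genes hold at least 1, while 1.63% of all 32851 windows do. The sites are shown because they are the element that SRF itself binds, each in a stretch of 30 bases with the CArG boxes in capitals. Srf holds 2, which begin 82 and 62 bases before the start (chr17:46556215-46556244, minus strand), Myl9 holds 1 at 161 bases (chr2:156775293-156775322, plus strand) and Cnn2 holds 1 at 56 bases (chr10:79988534-79988563, plus strand).
Srf: CCATATAAGGagcggcctcgCCATAAAAGG
Myl9: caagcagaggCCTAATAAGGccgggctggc
Cnn2: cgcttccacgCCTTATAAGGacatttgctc
Of the 3 genes with a match, Srf and Cnn2 fell under the drug, while Myl9 differed by -0.11 there and rose in recovery. No match in the windows of Acta2, Cnn1, Myh9, Tpm1 and Tpm2 says only that these letters are not in them. The windows of Acta2 and Cnn1 hold 6 CG dinucleotides each and those of the other 6 members 19 to 33, beside a median of 7 over all windows. DNA methylation was not measured in these samples.

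Of 11 listed SRF cofactor genes 10 were measured and 5 detected, and these 5 fell in 5aza-dC, with a median of -0.63, while 27.0% of all detected genes fell. With median scaling, a check of the lists added after the data were seen, none of the 5 passed in any comparison (limma; at an unadjusted p below 0.05, 2 were lower under the drug, 1 was lower in recovery against mock and 0 differed in recovery against 5aza-dC), and their median under the drug was -0.53 relative to that of all genes. They were the myocardin-related coactivator genes Mrtfb (-0.63 ± 0.10) and Mrtfa (at least 1.14-fold lower, since it was not well above background in 5aza-dC), the ETS partners Elk3 (-0.68 ± 0.08) and Elk4 (-0.42 ± 0.13), and Srfbp1 (-0.64 ± 0.07), which codes for a protein that binds SRF. The other measured genes of the list were not detected. In recovery against mock only Mrtfb fell, by at least 1.53-fold (adjusted p = 0.00265, limma), as it was not well above background in recovery, and the other values were 0.21 ± 0.07 for Mrtfa, -0.02 ± 0.08 for Elk3, -0.05 ± 0.13 for Elk4 and -0.19 ± 0.07 for Srfbp1. From 5aza-dC to recovery Elk3 and Srfbp1 rose by 0.65 ± 0.08 and 0.46 ± 0.07, and Mrtfa by at least 1.32-fold. An at-least fold sets the mean of the brighter group against the lowest signal that is well above background.

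Several serum-induced early genes are known SRF targets. Of 9 detected genes of this list (11 measured) 6 fell and 1 rose in 5aza-dC, with 27.0% and 30.1% of all genes. In recovery against mock 6 fell and none rose (limma), with 18.4% and 22.0% of all genes. At an unadjusted p below 0.05, 8 were lower and 0 higher there. In recovery against 5aza-dC 4 rose and 2 fell, with 21.6% and 20.9% of all genes. The medians were -0.46, -0.49 and 0.03. With median scaling 4 fell under the drug, 2 fell in recovery against mock and 1 rose in recovery against 5aza-dC, beside 355, 233 and 27 of all 8984 genes. The zinc finger factor Egr3 fell by 2.53 ± 0.13 and remained 1.06 ± 0.13 below mock in recovery. Its mean level of 4.73 in 5aza-dC lay near background, so the size of its fall under the drug is uncertain. The matricellular genes Ccn1 and Ccn2 fell by 1.63 ± 0.07 and 1.04 ± 0.08, and in recovery differed from mock by -0.58 ± 0.07 and -0.49 ± 0.08, both passing.

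Of 27 other actomyosin genes detected (28 measured) 11 fell and 2 rose in 5aza-dC, with a median of -0.28, beside 27.0% and 30.1% of all genes. In recovery against mock 5 rose and 6 fell, with a median of 0.12, and these counts were close to the 22.0% and 18.4% of all genes. In recovery against 5aza-dC 14 rose and 3 fell, with a median of 0.26, beside 21.6% and 20.9% of all genes. With median scaling 4 fell under the drug, 1 fell in recovery against mock and 1 rose in recovery against 5aza-dC, beside 355, 233 and 27 of all 8984 genes. The Z-disc protein gene Pdlim5 fell by 1.42 ± 0.09 and the LIM protein gene Fhl2 by 1.11 ± 0.12, and both were still lower than mock in recovery, at -0.66 ± 0.09 and -0.82 ± 0.12. Mylk, which codes for the kinase of the myosin light chain, rose by 0.93 ± 0.08 under the drug and stood at 0.25 ± 0.08 in recovery against mock (adjusted p = 0.0537, limma). Fhl1, chosen after its values were seen, differed by -0.11 ± 0.08 under the drug and rose by 1.16 ± 0.08 in recovery against mock (adjusted p = 2.00e-04, limma). Cytoplasmic beta-actin (Actb), also chosen after its values were seen, differed by -0.05 ± 0.07 and 0.02 ± 0.07 from mock (adjusted p = 0.563 and 0.854, limma). Smtn was the only detected gene of those listed as typical of differentiated smooth or heart muscle. It fell by 0.78 ± 0.09 under the drug and in recovery was 0.47 ± 0.09 below mock. With median scaling neither difference of Smtn passed (limma), at -0.83 and -0.55 relative to the median of all genes.

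**Figure D4:**
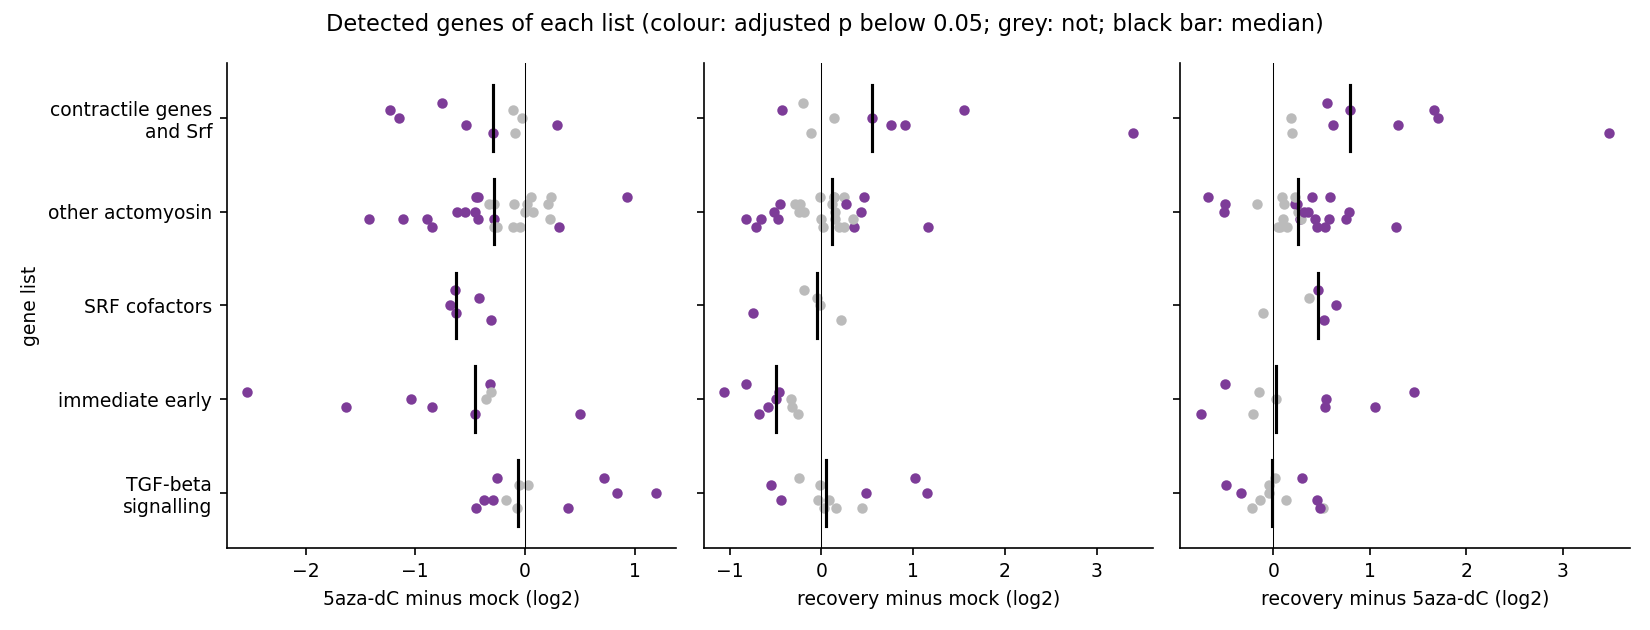
Log2 differences (horizontal axes) of the detected genes of 5 lists in 5aza-dC minus mock, recovery minus mock and recovery minus 5aza-dC; each point is a gene, coloured where its adjusted p is below 0.05, and black bars are medians. The 9 detected members have medians of -0.29, 0.55 and 0.79, while the early genes lie at -0.46 and -0.49 in the comparisons with mock.

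TGF-beta signalling is a known inducer of contractile gene expression in fibroblasts. Of 12 detected TGF-beta genes (13 measured) 4 rose and 4 fell in 5aza-dC, and 3 rose and 2 fell in recovery against mock, which was close to the shares of all genes (30.1% and 27.0%, then 22.0% and 18.4%). With median scaling 1 rose under the drug, as did 535 of all 8984 genes, and none passed in recovery against mock (limma). With that scaling 2 were higher and 2 lower in recovery against mock at an unadjusted p below 0.05. The ligand gene Tgfb3 rose by 1.19 ± 0.10 under the drug and stood 1.15 ± 0.10 above mock in recovery, and the signal transducer Smad3 rose by 0.84 ± 0.07 and stood 0.49 ± 0.07 above mock. The SMAD corepressor gene Ski rose by 0.72 ± 0.07 and stood 1.02 ± 0.07 above mock. The 4 that fell under the drug, named after their values were seen, were Ltbp1 (-0.45 ± 0.11), Smad2 (-0.37 ± 0.07), Tgfb2 (-0.29 ± 0.10) and Tgfbr2 (-0.26 ± 0.08).

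Of 10 detected fibroblast markers 2 rose and 4 fell in 5aza-dC, beside 30.1% and 27.0% of all genes, and 5 rose and 1 fell in recovery against mock, beside 22.0% and 18.4%, with medians of -0.11 and 0.29. The PDGF receptor gene Pdgfra and the proteoglycan gene Dcn rose by 1.57 ± 0.09 and 1.10 ± 0.11 under the drug, and S100a4 fell by 1.37 ± 0.12. In recovery against mock they stood at 1.16 ± 0.09, 1.23 ± 0.11 and -0.74 ± 0.12, all passing. With median scaling 1 fibroblast marker rose and 1 fell under the drug, beside 535 and 355 of all 8984 genes. With that scaling no fibroblast marker passed in recovery against mock (limma), where 58 of all genes rose and 233 fell. At an unadjusted p below 0.05, 2 were higher and 1 lower there. Of 10 measured skeletal muscle markers mock had 2 detected, 5aza-dC 4 and recovery 3. The summed intensity of the 10, not background-subtracted and mostly background, was 695.9, 734.7 and 701.1. The troponin genes Tnnt1 and Tnni2, not well above background in mock, were at least 2.92-fold and 1.24-fold higher in 5aza-dC. Of the 4 detected in any group 2 rose and none fell under the drug (limma), beside 30.1% and 27.0% of all genes. There 1 was lower at an unadjusted p below 0.05. In recovery against 5aza-dC 1 rose and 2 fell, beside 21.6% and 20.9% of all genes. With median scaling 1 of the 4 rose under the drug and 1 fell in recovery against 5aza-dC, beside 535 and 463 of all 8984 genes. None of the 4 passed in recovery against mock with that scaling (limma). The skeletal actin gene Acta1, chosen after its values were seen, rose by 0.80 ± 0.10 in recovery against mock (adjusted p = 0.0016, limma), while Myod1 and Myog were not detected in any group. The part of these markers in the changes of the members was not tested.

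The 5 genes whose pair of differences against mock lay nearest to that of Srf were Usp36, Nuak2, Elovl6, Rpf2 and Exosc6. Their distances on the log2 scale were 0.017, 0.019, 0.033, 0.040 and 0.054 among 8984 genes, over 3 groups. All are smaller than the SE of 0.08 of each Srf difference, so the choice and order of these genes lie within the spread between arrays. Against mock their differences spanned -1.24 to -1.18 under the drug and -0.47 to -0.40 after recovery, beside -1.23 and -0.43 for Srf. None of the other 9 members is among them.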

How the data were processed

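Total RNA was extracted with TRIZOL and labelled with a TotalPrep kit, per the labels' protocols. The first deposited table holds non-normalized intensity and a detection p-value for each probe, per the file headers, and the second deposited table holds intensity that the authors background-subtracted and scaled, as read from its values. The sources used here do not name the software behind them. There were 0 columns of other samples.

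Detection p-values lay on steps that fit 2 arrays with 936 negative controls (100.0%). The 2 arrays of each column were solved from both tables over p-values of 0.05 to 0.97, with a misfit of 8.82e-04 to 9.81e-04 against 0.0288 to 0.0381 for 1 array. The solution did not require the background-subtracted, scaled means of the 2 arrays to be equal, and they came to 224.47 to 224.61 beside 224.54 for the deposited columns. Array 1 of a group is the one with the larger scale factor, which carries no meaning between groups. On simulated columns of 45281 probes the median error was 0.001% to 0.106%. It was computed only for probes standing above background by a set margin. The median probe lay near background, so most probes did not enter it, and the error for dim probes was not assessed. Normexp correction (offset 16), quantile normalization and log2 were followed by limma 3.58.1 in R 4.3.3 (3 residual and 3.68 prior degrees of freedom). On simulated 5aza-dC minus mock data of 8984 genes, limma called 39% of differences of 0.5 and 89% of differences of 1. The simulation changed only a small share of the genes, while in the measured comparison 30.1% of genes rose and 27.0% fell. Benjamini-Hochberg adjustment depends on that share, so the 39% and 89% cannot be carried over to the measured data. In the measured 5aza-dC minus mock comparison Tpm1 and Tpm2 passed at differences of -0.29 and 0.29. With 2 arrays per group, absence of a call for a small difference is weak information.

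A gene was represented by its probe with the highest mean. Symbols came from the platform annotation (34885 probes with 1 symbol, 18 with several and 10378 not listed). The members, the lists and the use of solved arrays were chosen with earlier results of these data known. Named were all members, the 3 largest passing changes per list under the drug, all detected SRF cofactors and smooth muscle genes, and the 5 genes nearest to Srf. The genes of 1 further list are not reported here.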

Additional observations from a re-analysis of the deposited data

How the results depend on the processing

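The counts of members that rose and fell were recomputed under 15 alternatives. Scaling to the median of all probes in place of quantile normalization put the median of all genes at -0.12 in 5aza-dC minus mock, -0.26 in recovery minus mock and -0.15 in recovery minus 5aza-dC. With it 0 members rose and 2 fell (Srf and Tagln) under the drug, 2 rose (Actg2 and Myl9) and 0 fell in recovery against mock, and 4 rose in recovery against 5aza-dC. Relative to these medians Acta2 stood at -0.63 and 0.79, Tpm2 at 0.21 and 0.82 and Srf at -1.28 and -0.54 against mock. Over all genes it made 535 higher and 355 lower under the drug (against 2703 and 2426), 58 and 233 in recovery against mock (against 1980 and 1651), and 27 and 463 in recovery against 5aza-dC (against 1942 and 1880). The median deposited intensity was 63.8, 61.2 and 61.1 for mock, 5aza-dC and recovery, near the background of 61.6, 59.04 and 59.39. Median scaling therefore leaves differences in brightness between arrays largely in place, such as scale factors of 1.1768 and 0.6836 for the mock arrays. With a threshold of 1 on the log2 scale and no test on the deposited columns, as with the series matrix values, 0 rose and 2 fell under the drug, 2 rose and 0 fell in recovery against mock, and 4 rose in recovery against 5aza-dC. Counting every probe gave 10 falls under the drug, 9 rises in recovery against mock and 12 rises in recovery against 5aza-dC. Leaving out each array in turn gave 0 to 1 rises and 4 to 5 falls under the drug, 5 to 6 rises and 1 fall in recovery against mock, and 6 to 8 rises in recovery against 5aza-dC. The 0 rises came without either 5aza-dC array. Among single members only Myh9, which passed in no comparison of all arrays, reversed sign: without single arrays it ran from -0.18 to 0.11 under the drug (0.11 without mock array 1) and from -0.00 to 0.29 in recovery against mock (-0.00 without mock array 2, and 0.29, which passed, without mock array 1), and median scaling gave -0.22 in recovery against mock. Of the tested alternative values of single members 325 stayed as they were in direction and call, 20 no longer passed, 3 newly passed and 3 reversed. Of those without a test 47 moved by less than the SE and 7 by more. Values that kept direction and call could still differ in size. Without background correction Tagln stood at -0.61 under the drug (against -1.15) and Actg2 at 2.74 in recovery against mock (against 3.39). With 1 array left in a group, its spread is taken from the other groups. No paired analysis was possible because the labels give 1 sample per group and no replicate numbers.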
